A study of Mus musculus with 12 samples.

Results

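The data were small RNA sequencing counts of the colon and the whole blood of 6 male C57BL/6 mice aged 8 weeks, and the subject here was the miR-17-92 cluster with its paralogs miR-106b-25 and miR-106a-363. The members were 10 mature arms from these clusters, as named in the count table: mmu-mir-17-5p, mmu-mir-18a-5p, mmu-mir-19a-3p, mmu-mir-20a-5p, mmu-mir-19b-3p, mmu-mir-92a-3p, mmu-mir-106b-5p, mmu-mir-93-5p, mmu-mir-25-3p and mmu-mir-363-3p, each written below from miR on. They made up 10 of the 1978 mature miRNA entries, were taken by name, and all 10 passed the filter on low counts in both tissues. The DSS mice (mice 1, 7 and 9) received dextran sulfate sodium at 1.5% (wt/vol) in the drinking water for 7 days, which injures the colonic lining and is used as a model of acute ulcerative colitis. The control mice (mice 2, 4 and 8) were time-matched and drank the same water without DSS. All mice were killed on day 8, the colon and the blood of each mouse gave a library each, and there were 12 libraries in 4 groups of 3. The mice were of 1 strain and 1 sex, and RNA was isolated with different kits from blood and from colon, so tissue and kit cannot be told apart. The colon was taken as a whole tissue, so fewer cells of a type and less RNA per cell cannot be told apart in it, and the same holds for blood.

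The grouping above follows the figures of the study, where mice 1, 7 and 9 are the treated animals. The disease state given in the sample records puts mice 1, 2 and 4 on the side of colitis and mice 7, 8 and 9 on the side of control, and the records also name the tissue in conflicting ways. Every direction below for DSS against control therefore rests on the grouping of the figures, and the other grouping turned, among others, the direction of miR-363-3p and miR-20b-5p in both tissues and of miR-20a-5p and miR-17-5p in blood. The tissues were taken from the sample titles and the deposited tables of each tissue, and the libraries bore them out. The erythroid list (miR-451a, both arms of miR-144, miR-486a-5p and miR-486b-5p) took 76.3% to 83.9% of all counts in blood and 0.283% to 0.501% in colon. The epithelial list (8 miRNAs of the miR-200 and miR-192 groups) took 6.8% to 18.3% in colon and 0.0816% to 0.147% in blood. The colon libraries held 15060553 to 20106226 counts each, and the blood libraries 21127134 to 32944792. In blood, miR-486a-5p (8220454 to 13004847 counts) and miR-486b-5p (8550284 to 13503827) had similar counts, and a read matching both entries may be counted for each. The study reports fewer miRNA-matched reads per sample than the blood totals here. These totals and the erythroid share of blood can therefore exceed those of distinct reads.

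A microRNA is a small noncoding RNA that guides Argonaute proteins to messenger RNAs, mostly through its seed, the bases 2 to 8 from its 5′ end. The miR-17-92 cluster is a single primary transcript that carries several hairpins, is switched on by MYC and E2F factors and is known for promoting proliferation and survival, among other roles in lymphocytes and intestinal epithelium. Its paralogs arose by duplication of the cluster and share its seeds, so the members fall into families by seed as well as by locus. In red blood cell precursors and circulating red cells, miR-92a and miR-25 are among the abundant miRNAs.

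The 10 mature sequences fell into 4 seed families. They are shown because members of a family differ by few bases and so can share targets, and because counts of near-identical entries can be exchanged in the counting. They are written 5′ to 3′ as in the deposited tables, with the seed in capitals.
miR-17-5p: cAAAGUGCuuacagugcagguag
miR-20a-5p: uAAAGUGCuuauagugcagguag
miR-93-5p: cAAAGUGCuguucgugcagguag
miR-106b-5p: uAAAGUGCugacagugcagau
miR-18a-5p: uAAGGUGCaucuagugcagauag
miR-19a-3p: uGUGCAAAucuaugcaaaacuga
miR-19b-3p: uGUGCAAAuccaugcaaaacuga
miR-92a-3p: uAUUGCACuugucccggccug
miR-25-3p: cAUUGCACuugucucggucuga
miR-363-3p: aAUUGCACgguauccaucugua

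The seed AAAGUGC belonged to 4 members, AUUGCAC to 3, GUGCAAA to 2 and AAGGUGC to miR-18a-5p. All 10 sequences equalled those of RefSeq for GRCm38.p6. miR-19a-3p and miR-19b-3p differed at 1 of 23 positions, and miR-17-5p and miR-20a-5p at 2 of 23. Another near copy lies outside the members: miR-106a-5p, from the X chromosome, differed from miR-17-5p at 1 of 23 positions. Levels of these pairs are therefore less certain than those of miR-363-3p, miR-25-3p, miR-93-5p and miR-106b-5p, to which no other entry of the tables came within 2 differing positions over sequences whose lengths differed by at most 1 base.

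On GRCm38.p6, the 6 hairpins of miR-17-92 lie on the plus strand of chromosome 14 (chr14:115043671-115044506, a span of 836 bp), within an exon of the annotated long noncoding RNA Mir17hg. The 3 hairpins of miR-106b-25 lie on the minus strand of chromosome 5 (chr5:138165321-138165818, 498 bp), within Mcm7, which encodes a subunit of the replicative DNA helicase. The hairpin of miR-106b overlapped no exon of the Mcm7 transcripts spanning it, while those of miR-93 and miR-25 were intronic in all spanning transcripts but 1. The 6 hairpins of miR-106a-363 lie on the minus strand of the X chromosome (chrX:52741693-52742567, 875 bp), outside any annotated host gene. miR-19b-3p and miR-92a-3p each come from a hairpin on chromosome 14 and another on the X chromosome with the same mature sequence, so their counts are sums over both loci.

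Levels are given as CPM, the count per 1000000 counts of the library after scaling by TMM factors, within a tissue unless stated otherwise. In colon, the order of the members by mean level over the 6 libraries ran from miR-92a-3p at 1586 CPM ± 138 (SD, n = 6) and miR-25-3p at 1255 CPM ± 161 down to miR-19a-3p at 2.50 CPM ± 0.64 and miR-18a-5p at 1.18 CPM ± 0.48. Between them stood miR-93-5p (116 CPM), miR-17-5p (111 CPM), miR-20a-5p (76.4 CPM), miR-106b-5p (18.4 CPM), miR-19b-3p (16.1 CPM) and miR-363-3p (6.89 CPM). The ranges over libraries of neighbours in this order overlapped, except between miR-25-3p and miR-93-5p, between miR-17-5p and miR-20a-5p, and between miR-20a-5p and miR-106b-5p. In blood, miR-25-3p (25430 CPM ± 3846, SD, n = 6) and miR-92a-3p (21350 CPM ± 4872) led and overlapped each other. They were followed by miR-93-5p (385 CPM), miR-17-5p (167 CPM), miR-106b-5p (64.5 CPM), miR-20a-5p (46.2 CPM), miR-363-3p (15.8 CPM) and miR-19b-3p (10.4 CPM), with miR-19a-3p (1.94 CPM) and miR-18a-5p (1.26 CPM) last. Neighbours overlapped there too, except between miR-92a-3p and miR-93-5p and between miR-93-5p and miR-17-5p. The seed family AUUGCAC held 87.4% to 90.2% of the members' counts in colon and 98.1% to 99.1% in blood, while AAAGUGC held 9.27% to 11.8% in colon and 0.899% to 1.77% in blood. Ligation and amplification differ between miRNA sequences in library preparation, so an order of levels between miRNAs is that of the counts.

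**Figure D1:**
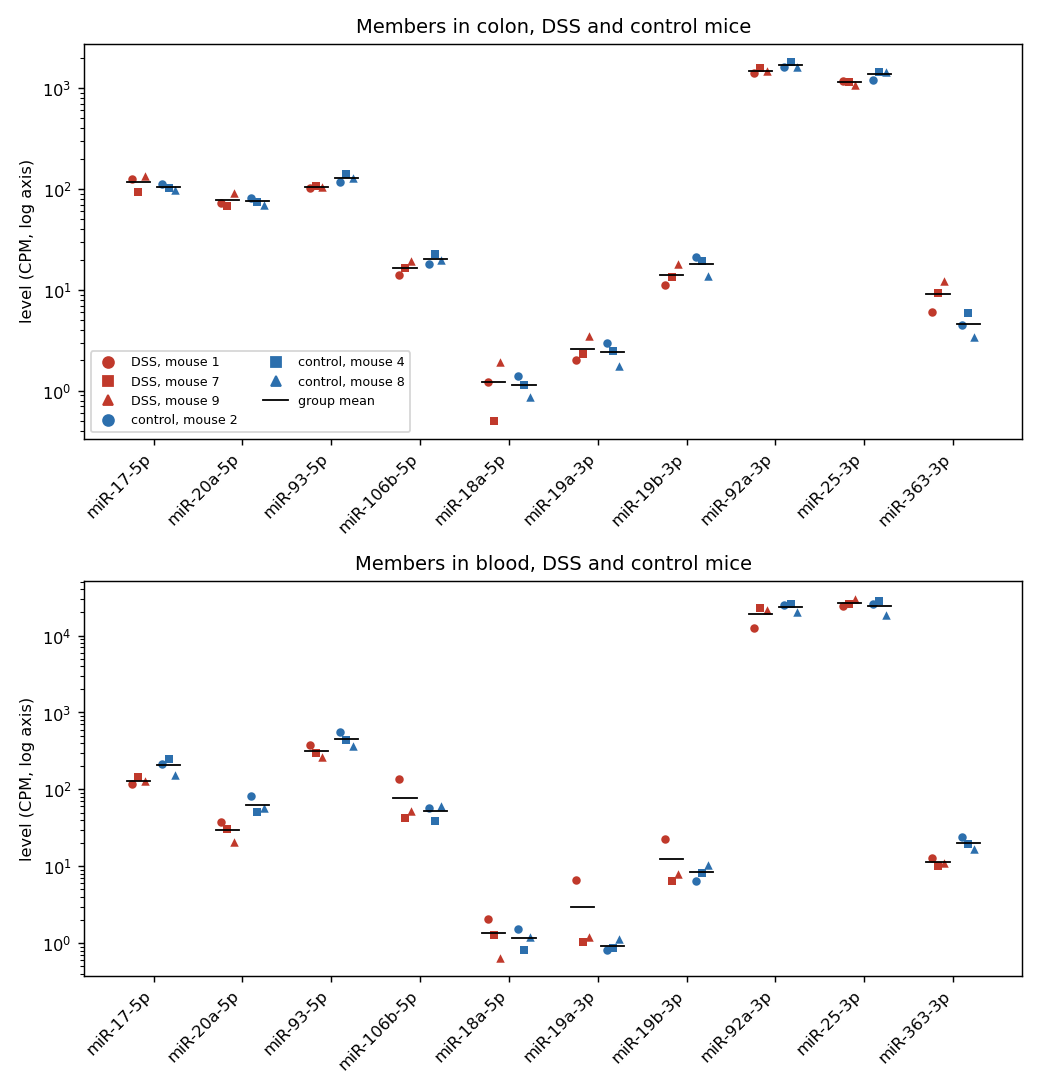
Level of each member in CPM (log axis) in the colon and blood libraries, with DSS mice in red, control mice in blue and a line at each group mean of 3 mice. miR-92a-3p and miR-25-3p stand above all other members in every library, and the blood library of DSS mouse 1 stands apart for miR-19a-3p at 6.65 CPM against 0.809 to 1.20 CPM in the other blood libraries.

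The comparison of DSS with control colon asked which miRNAs change at the inflamed site. None of the 10 members passed the test (edgeR's quasi-likelihood test, with a fold change over 1.5 and a Benjamini-Hochberg adjusted p no higher than 0.05), against 10.1% of the 542 miRNAs tested, of which 55 passed. That background was itself sensitive to single mice: 0 miRNAs passed without DSS mouse 7 or without any 1 of control mice 2, 4 and 8, against 44 without DSS mouse 1 and 37 without DSS mouse 9. At an unadjusted p under 0.05 there was 1 member, miR-363-3p, against 31.4% of all miRNAs. DESeq2 called the same 1 member, against 14.2% of all miRNAs. The members' median log2 fold change was -0.07 against 0.04 for all miRNAs tested, and they ranged from -0.35 to 1.00. Groups did not overlap in 1 member that was higher and 3 that were lower in DSS mice, against 38.6% of all miRNAs in either direction (22.5% higher and 16.1% lower).

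miR-363-3p, the member from the X-linked cluster, stood at 6.02, 9.30 and 12.2 CPM in the colon of DSS mice 1, 7 and 9 and at 4.53, 5.86 and 3.39 CPM in control mice 2, 4 and 8. All 3 DSS mice lay above all 3 controls, with DSS mouse 1 close to the highest control, and the counts behind these values were 84 to 316 and 54 to 97. Its log2 fold change was 1.00 (SE 0.31), a 2.01-fold higher mean, with adjusted p = 0.086 in edgeR's quasi-likelihood test. It passed with DESeq2 (0.94, adjusted p = 0.037), without the filter on low counts (1.01, adjusted p = 0.032) and without DSS mouse 1 (1.22, adjusted p = 0.046). Over the 17 settings that kept the grouping of the figures its adjusted p was 0.032 to 0.23 and its log2 fold change 0.74 to 1.27.

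The other 2 members of its seed family, miR-25-3p and miR-92a-3p, and miR-93-5p lay on the other side of their controls, by small amounts. miR-25-3p stood at 1180, 1150 and 1084 CPM in the DSS colons and at 1204, 1460 and 1451 CPM in the control colons. The groups did not overlap, though DSS mouse 1 and control mouse 2 nearly met, and the log2 fold change of -0.27 (SE 0.12) had an adjusted p of 0.18 in edgeR's quasi-likelihood test. miR-93-5p, its neighbour in Mcm7, stood at 102, 108 and 104 CPM against 116, 140 and 128 CPM. Again no DSS mouse reached a control, with a log2 fold change of -0.29 (SE 0.13, edgeR adjusted p = 0.17). miR-92a-3p stood at 1416, 1569 and 1480 CPM against 1626, 1817 and 1607 CPM, a log2 fold change of -0.18 (SE 0.11, edgeR adjusted p = 0.31) without overlap. Scaling by total counts alone turned miR-92a-3p to 0.04, as that scaling raised the median of all miRNAs to 0.26.

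The remaining members overlapped between DSS and control colon. miR-17-5p stood at 127, 92.9 and 134 CPM against 111, 101 and 98.4 CPM (log2 fold change 0.18, SE 0.17) and miR-20a-5p at 73.4, 67.3 and 91.8 CPM against 82.1, 74.8 and 68.9 CPM (0.04, SE 0.17). miR-106b-5p gave -0.28 (SE 0.18), miR-19b-3p -0.35 (SE 0.25), miR-19a-3p 0.12 (SE 0.31) and miR-18a-5p 0.12 (SE 0.48), the last on 9 to 50 counts a library. The adjusted p of these 6 members in edgeR's quasi-likelihood test lay between 0.32 and 0.88.

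Markers of other cells moved between the same colons. Of the 8 epithelial miRNAs, 4 passed as lower and 0 as higher, against 10.1% of all miRNAs passing in either direction. Their summed level was 52900 to 121900 CPM in DSS mice and 155700 to 195300 CPM in control mice. Of the 4 myeloid miRNAs, both arms of miR-223 and of miR-142a, 2 passed as higher and 0 as lower, with a summed level of 368 to 1123 CPM against 254 to 379 CPM. These calls were lost, with all others, without DSS mouse 7 or without any 1 control mouse. Of the 4 erythroid miRNAs tested 0 passed, with a summed level of 3232 to 4730 CPM against 3127 to 4288 CPM. The part of these shifts in the values of the members was not tested.

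The comparison of DSS with control blood asked the same of the circulation. None of the 10 members passed edgeR's quasi-likelihood test, and neither did any of the 484 miRNAs tested (0%). At an unadjusted p under 0.05 there were 4 members (miR-20a-5p, miR-363-3p, miR-17-5p and miR-19a-3p), against 11.6% of all miRNAs. DESeq2 called 0 members, against 12 of the 484 miRNAs tested. The members' median log2 fold change was -0.09 against -0.05 for all miRNAs. Groups did not overlap in 3 members, all lower in DSS mice, against 9.92% of all miRNAs in that direction.

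miR-20a-5p, of the AAAGUGC family, stood at 38.1, 30.2 and 20.7 CPM in DSS mice 1, 7 and 9 and at 81.4, 50.6 and 56.5 CPM in control mice 2, 4 and 8. Every DSS mouse lay below every control, with a log2 fold change of -1.08 (SE 0.30, a 2.12-fold lower mean) and adjusted p = 0.25 in edgeR's quasi-likelihood test. It passed without the filter on low counts (-1.05, edgeR adjusted p = 0.026), and its adjusted p was 0.026 to 0.73 over the 17 settings with the grouping of the figures. miR-17-5p, which comes from the same transcript and seed family, stood at 116, 143.3 and 128 CPM against 211, 249 and 154 CPM. It too was lower in every DSS mouse, though DSS mouse 7 and control mouse 8 were close (log2 fold change -0.66, SE 0.24, edgeR adjusted p = 0.36). miR-363-3p stood at 12.8, 10.1 and 11.1 CPM against 24.1, 19.7 and 16.8 CPM. The groups were apart, with a log2 fold change of -0.84 (SE 0.24, a 1.78-fold lower mean) and adjusted p = 0.25 in edgeR's quasi-likelihood test, so this member lay on opposite sides of its controls in blood and in colon.

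miR-19a-3p had the highest fold change in blood and rested on 1 library. It stood at 6.65, 1.03 and 1.20 CPM in DSS mice 1, 7 and 9 and at 0.809, 0.863 and 1.12 CPM in control mice 2, 4 and 8, which is 264 counts in DSS mouse 1 and 15 to 33 in the other 5 libraries. Only DSS mouse 1 stood apart, and the log2 fold change of 1.68 (SE 0.70, edgeR adjusted p = 0.41) was 0.29 without that mouse (edgeR adjusted p = 0.89). With all mice and no filter on low counts it passed (1.70, edgeR adjusted p = 6.9e-04). miR-19b-3p followed it at 22.9 CPM in DSS mouse 1 against 6.45 to 10.4 CPM in the other 5 blood libraries, as did miR-106b-5p at 136 CPM against 38.7 to 60.7 CPM and miR-18a-5p at 2.09 CPM against 0.646 to 1.53 CPM. Without DSS mouse 1 the log2 fold changes of these 3 turned from 0.58, 0.57 and 0.20 to -0.16, -0.07 and -0.22.

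The same blood library was the lowest of 6 for miR-92a-3p, at 12470 CPM against 20080 to 25930 CPM, and for miR-17-5p. It lay within the others for miR-20a-5p, miR-363-3p, miR-93-5p and miR-25-3p. Of the 4 members above the range of the others, all had a G and C content of at most 43.5% of bases (miR-19a-3p had the lowest of the members, 34.8%), and the 2 members below it had 47.8% (miR-17-5p) and 57.1% (miR-92a-3p, the highest). The split was not clean, since miR-20a-5p (39.1%, equal to miR-19b-3p) and miR-363-3p (40.9%) lay within the range of the others, at 0.752 and 0.761 times their median. The part of base composition in the levels of this library was not tested.

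The other 3 members of blood overlapped between groups. miR-93-5p stood at 378, 299 and 263 CPM against 556, 443 and 372 CPM (log2 fold change -0.54, SE 0.24, edgeR adjusted p = 0.42), with DSS mouse 1 just over the lowest control. miR-92a-3p gave -0.32 (SE 0.28) and miR-25-3p 0.14 (SE 0.24). The erythroid list, which leads in blood, took 77.0% to 81.4% of the counts in DSS blood and 76.3% to 83.9% in control blood, and none of its 5 miRNAs passed. One of them, miR-451a, stood at 5916 to 9890 CPM in DSS blood and 10010 to 12840 CPM in control blood, without overlap (log2 fold change -0.56, SE 0.25, edgeR adjusted p = 0.42). The others overlapped, with 0.51 for miR-144-5p, 0.17 for miR-144-3p, -0.25 for miR-486a-5p and -0.23 for miR-486b-5p. The endothelial list had a summed level of 13.4 to 16.3 CPM in DSS blood and 31.0 to 57.3 CPM in control blood, and the lymphocyte list 244 to 272 CPM against 162 to 237 CPM. Of the lymphocyte miRNAs, miR-181a-5p was higher without overlap (0.63), while miR-342-3p (0.35) and miR-150-5p (-0.11) overlapped. The epithelial list had 943 to 1109 CPM against 1112 to 1310 CPM. The groups did not overlap in these 3 sums, and 0 of the 1, 3 and 8 miRNAs tested from them passed. The liver miRNA miR-122-5p stood at 6.37 to 10.6 CPM against 15.9 to 191 CPM (-3.55, SE 0.76, edgeR adjusted p = 0.16). The myeloid miR-223-3p stood at 20.3 to 38.3 CPM against 9.53 to 12.03 CPM (1.31, SE 0.29, edgeR adjusted p = 0.16). Neither miR-122-5p nor miR-223-3p overlapped between groups. Of the other myeloid miRNAs, miR-223-5p gave -0.80, miR-142a-3p -0.58 and miR-142a-5p 0.22, all with overlap. The summed myeloid level also overlapped, at 4581 to 5660 CPM in DSS blood and 3115 to 5216 CPM in control blood. The part of these cell types in the members' values was not tested.

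**Figure D2:**
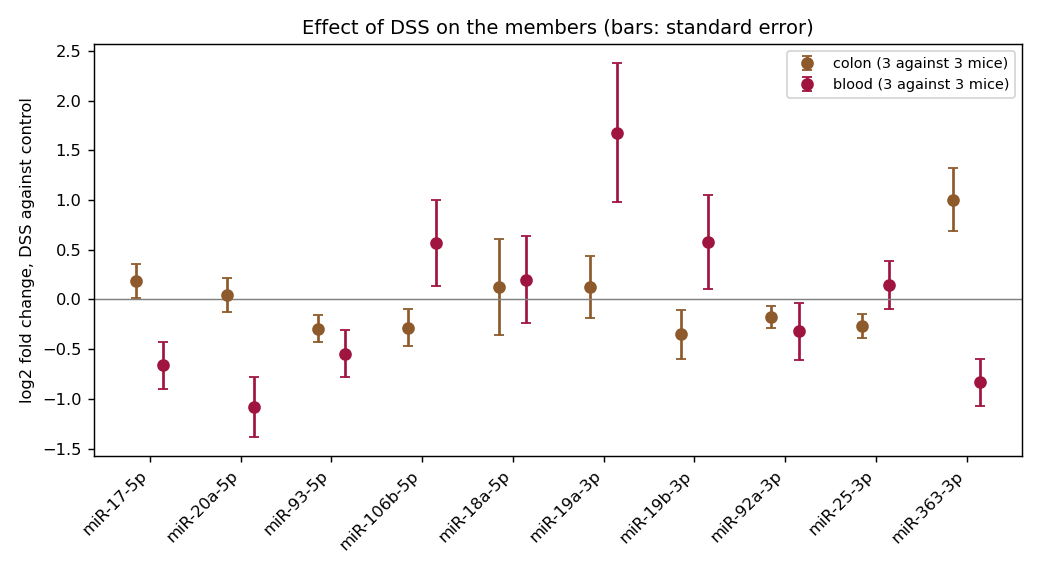
Log2 fold change of DSS against control for each member in colon and in blood, with the standard error from edgeR's quasi-likelihood test over 3 against 3 mice. miR-363-3p is at 1.00 in colon and -0.84 in blood, and no point passes the test.

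Whether DSS acted differently in blood and in colon was tested as the difference of the 2 effects in a fit over all 12 libraries. None of the 10 members passed in edgeR's quasi-likelihood test, and 0% of the 680 miRNAs tested did. At an unadjusted p under 0.05 there were 3 members, against 13.8% of all miRNAs: miR-363-3p at -1.48 (SE 0.48, adjusted p = 0.24), miR-25-3p at 0.76 (SE 0.30, adjusted p = 0.30; the log2 difference was 0.32 with RLE factors) and miR-19a-3p at 1.98 (SE 0.91, adjusted p = 0.35), the last of which was 0.14 without DSS mouse 1. DESeq2 called 2 members, against 5.29% of all miRNAs: miR-363-3p at -1.93 (adjusted p = 1.6e-04) and miR-20a-5p at -1.20 (adjusted p = 0.025, against -0.73 and 0.52 with edgeR). Over the 16 settings with the grouping of the figures the adjusted p was 1.6e-04 to 0.50 for miR-363-3p and 0.025 to 0.83 for miR-20a-5p. The median of all miRNAs was 0.22 with TMM factors and -0.18 with RLE factors, those of DESeq2. Relative to that median, miR-363-3p lay between -1.76 and -1.70 under the 4 scalings and miR-20a-5p between -1.03 and -0.95.

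The other products of the X-linked cluster were read beside miR-363-3p. Of its 10 products other than the mature sequences shared with chromosome 14, 6 had at least 1 count in colon. In colon, both miR-363-5p and miR-92a-2-5p were under the filter on low counts. Of these products, 3 sequences are shown because miR-363-5p is the other arm of the miR-363 hairpin, miR-20b-5p shares the seed of miR-17-5p, and miR-92a-2-5p tells the X-linked miR-92a hairpin from the one on chromosome 14.
miR-363-5p: cAGGUGGAacacgaugcaauuu
miR-20b-5p: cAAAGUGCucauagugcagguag
miR-92a-2-5p: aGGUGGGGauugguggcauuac

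miR-363-5p had 8, 16 and 24 counts in the colon of DSS mice 1, 7 and 9 and 1, 2 and 1 in control mice 2, 4 and 8. Every DSS colon was above every control colon (0.573 to 0.929 CPM against 0.0627 to 0.121 CPM), but the entry was under the filter on low counts. Fitted without the filter, its log2 fold change was 3.17 (SE 0.66), a value that rests on the 1 or 2 counts of each control colon. It is given with no test. miR-20b-5p had 15, 32 and 61 counts in DSS colons and 8, 15 and 16 in control colons, or 1.07, 1.80 and 2.36 CPM against 0.533, 0.906 and 1.00 CPM. All DSS mice were above all controls, as for 22.5% of all miRNAs tested, with a log2 fold change of 1.11 (SE 0.39, edgeR adjusted p = 0.11). miR-92a-2-5p had 4 counts in each DSS colon and 0 in each control colon. With the group's limit at 3 counts, its level in DSS colon was at least 3.30-fold higher (0.209 CPM against up to 0.0631 CPM), and its adjusted p without the filter was 0.072 in edgeR's quasi-likelihood test.

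miR-106a-5p had 14, 23 and 50 counts in DSS colons and 19, 9 and 11 in control colons, which overlapped (log2 fold change 0.79, SE 0.42, edgeR adjusted p = 0.24). miR-18b-5p had 1 to 3 counts in DSS colons and 0 to 1 in control colons. The other 4 products, the 3p arms of miR-106a, miR-18b and miR-20b and miR-19b-2-5p, had 0 counts in every colon library. The endothelial list (both arms of miR-126a) was also higher without overlap in DSS colon, at 6861 to 7340 CPM against 5144 to 5558 CPM, beside the myeloid and epithelial shifts given above. The part of these cell types in the X-linked products was not tested.

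In blood none of the X-linked products passed edgeR's quasi-likelihood test. miR-20b-5p stood at 0.805, 0.613 and 0.508 CPM in DSS mice and at 1.80, 1.04 and 0.984 CPM in control mice, on 11 to 40 counts. All DSS mice were below all controls (log2 fold change -0.96, SE 0.36, edgeR adjusted p = 0.36), as for miR-363-3p. miR-363-5p stood at 2.01, 1.26 and 1.25 CPM against 1.66, 0.979 and 1.56 CPM and overlapped (0.10, SE 0.33), as did miR-106a-5p (-0.24, SE 0.35). The effect of DSS in blood less that in colon was -1.70 for miR-20b-5p (SE 0.60, edgeR adjusted p = 0.30) and was called by DESeq2 (adjusted p = 0.014), while over the 15 settings with the grouping of the figures the adjusted p reached 0.60. For miR-363-5p the difference was -2.72, a value that rests on the 1 or 2 counts of each control colon and is given with no test.

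**Figure D3:**
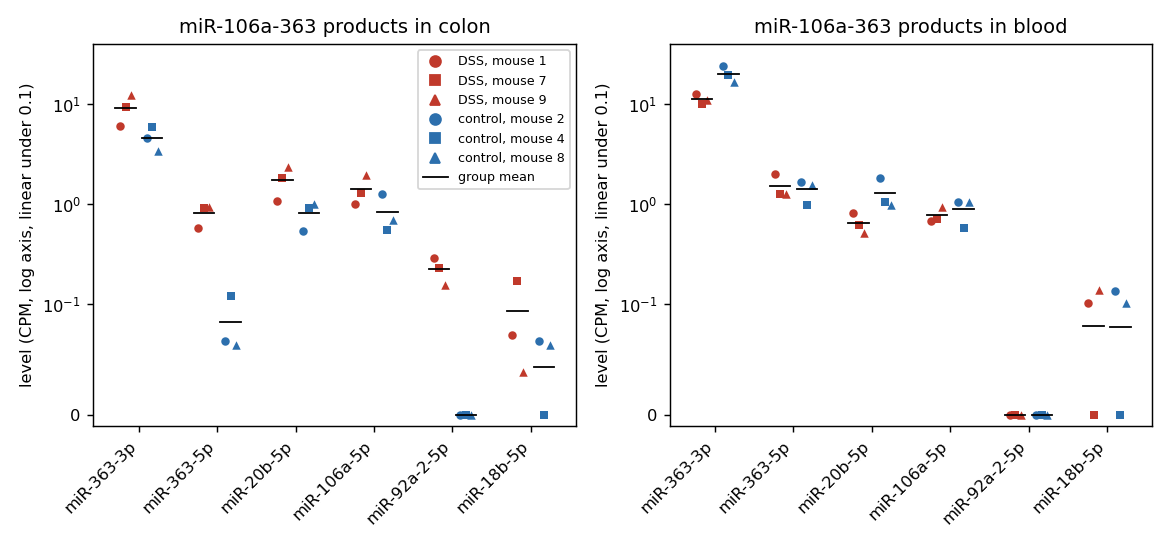
Level of 6 products of the X-linked miR-106a-363 cluster in CPM (log axis, linear under 0.1 CPM) in colon and in blood. In colon all DSS mice lie above all control mice for miR-363-3p, miR-363-5p, miR-20b-5p and miR-92a-2-5p, and in blood all DSS mice lie below all control mice for miR-363-3p and miR-20b-5p.

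The contrast of blood with colon described where the members are carried. In control mice 6 of 10 members were higher in blood and 0 were lower in edgeR's quasi-likelihood test over all 12 libraries, against 35.7% higher and 50.7% lower among the 680 miRNAs tested, 86.5% in all. In DSS mice it was again 6 higher and 0 lower, against 36% higher and 47.4% lower, 83.4% in all. The members called were miR-17-5p, miR-92a-3p, miR-106b-5p, miR-93-5p, miR-25-3p and miR-363-3p in both groups. The members' median log2 fold change was 1.76 in control mice and 1.23 in DSS mice, against -1.14 and -0.70 for all miRNAs.

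miR-25-3p led, at 27940 CPM ± 1548 (SD, n = 3) in control blood against 1076 CPM ± 102 in control colon on the common scale of 12 libraries. In DSS mice the levels were 38050 CPM ± 3793 against 868 CPM ± 41.4. The log2 fold changes were 4.70 (SE 0.24, a 26.0-fold higher level, edgeR adjusted p = 6.8e-10) and 5.45 (SE 0.25, 43.9-fold, edgeR adjusted p = 2.4e-10). miR-92a-3p stood at 27660 CPM ± 672 against 1321 CPM ± 94.0 in control mice and at 26810 CPM ± 7624 against 1135 CPM ± 78.6 in DSS mice. It was 20.9-fold and 23.6-fold higher in blood (log2 fold changes 4.39, SE 0.27, and 4.56, SE 0.27; edgeR adjusted p = 1.5e-09 and 1.3e-09). No blood library came near a colon library for either miRNA. These folds moved with the scaling: over 16 settings the log2 fold changes of miR-25-3p were 4.11 to 6.00 in control and 4.57 to 6.61 in DSS mice, and those of miR-92a-3p 3.80 to 5.68 and 3.63 to 5.73.

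The other 4 members called were higher in blood by less. miR-93-5p was higher in blood by 2.41 in control and 2.53 in DSS mice (log2, SE 0.29 in both) and its neighbour miR-106b-5p by 1.99 (SE 0.47) and 3.21 (SE 0.49). The latter value was 2.18 without DSS mouse 1. miR-363-3p was higher by 2.71 (SE 0.36) in control mice and by 1.23 (SE 0.34) in DSS mice, and the second call was lost without DSS mouse 1 (0.75, edgeR adjusted p = 0.059) and with total counts alone (0.28, edgeR adjusted p = 0.52). miR-17-5p was higher by 1.54 (SE 0.26) and 1.06 (SE 0.26), of which the second was lost with total counts alone (0.12, edgeR adjusted p = 0.70).

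The 4 members that did not pass were miR-18a-5p (0.66 and 1.13), miR-19a-3p (-0.74 and 1.23), miR-19b-3p (-0.49 and 0.82) and miR-20a-5p (0.32 and -0.41), in control and DSS mice. Their libraries overlapped between tissues. Without the filter on low counts miR-19a-3p was called lower in blood in control mice (-0.93, edgeR adjusted p = 0.048) and higher in DSS mice (0.89, edgeR adjusted p = 0.042), where 52% and 51.2% of all miRNAs were called. With total counts alone miR-20a-5p was called lower in blood in DSS mice (-1.35, edgeR adjusted p = 0.0045). Without DSS mouse 1 the values in DSS mice turned to -0.61 for miR-19a-3p and -0.35 for miR-19b-3p. Erythroid miRNAs take most of the counts in blood, and these values moved with the scaling. The median of all miRNAs in control mice was -1.14 with TMM, -0.84 with RLE, 0.11 with upper-quartile factors and -1.70 with total counts alone. Relative to that median the members' values under the 4 scalings, given as a description with no test, ran from 0.38 (miR-19a-3p) to 5.89 (miR-25-3p) in control mice and from 0.22 (miR-20a-5p) to 6.23 (miR-25-3p) in DSS mice.

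**Figure D4:**
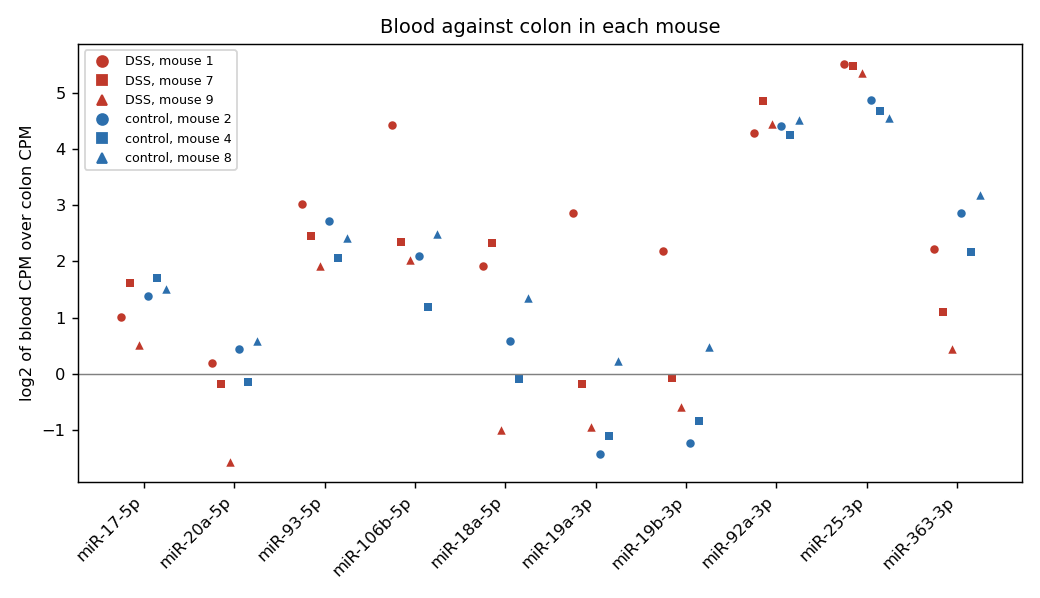
Log2 ratio of the level in blood to that in colon in each of 6 mice, on CPM scaled over all 12 libraries. miR-92a-3p and miR-25-3p are above 4 in every mouse, while miR-18a-5p, miR-20a-5p, miR-19a-3p and miR-19b-3p lie on both sides of 0, with DSS mouse 1 the highest of the mice for miR-19a-3p and miR-19b-3p.

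Ratios of counts within a library need no scaling, and 9 were compared between the tissues with exact permutation tests over 6 blood and 6 colon libraries (two-sided, Benjamini-Hochberg adjusted over 9). The ratios were chosen after the levels had been seen. From the miR-17-92 transcript, miR-92a-3p exceeded miR-17-5p by 11.1 to 17.9 times in colon and by 104 to 168 times in blood. The tissues did not overlap, with a mean log2 difference of 3.17 in the same direction in 6 of 6 mice (exact adjusted p = 0.0039). From Mcm7, miR-25-3p exceeded miR-93-5p by 10.3 to 11.6 times in colon and by 46.3 to 113 times in blood (2.64, exact adjusted p = 0.0039). miR-25-3p was at 0.733 to 0.903 times miR-92a-3p in colon and at 0.926 to 1.96 times in blood (0.62, exact adjusted p = 0.0039). The members of both transcripts were counted in different proportions in the tissues, where miR-92a-3p also comes from the X chromosome.

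The arms of a hairpin also differed in proportion between tissues. From miR-18a, the 3p arm exceeded the member arm miR-18a-5p by 1.18 to 5.22 times in colon and by 18.3 to 62.4 times in blood, a mean log2 difference of 3.97 in 6 of 6 mice (exact permutation test, adjusted p = 0.0039). miR-18a-3p itself had 20 to 72 counts in colon and 575 to 1515 in blood and was 24.7-fold higher in blood in control mice, while miR-18a-5p did not pass. From miR-106b, the 3p arm exceeded miR-106b-5p by 6.10 to 11.6 times in colon and by 9.35 to 75.9 times in blood. The tissues overlapped through DSS mouse 1, the lowest blood library, and the log2 difference of 1.92 passed between libraries (exact permutation test, adjusted p = 0.0065) but not within mice (5 of 6 mice, exact sign-flip test, adjusted p = 0.070). In both hairpins the arm listed among the members was the rarer one in all 12 libraries.

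From miR-17, the 5p arm exceeded miR-17-3p by 28.0 to 65.6 times in colon and by 5.10 to 7.75 times in blood, a log2 difference of -2.43 in 6 of 6 mice (exact permutation test, adjusted p = 0.0039). From miR-93, the 5p arm exceeded the 3p arm by 99.6 to 356 times in colon and 53.3 to 188 times in blood, which overlapped (log2 difference -1.02, exact permutation test, adjusted p = 0.025). The arms of miR-25 (0.33, exact permutation test, adjusted p = 0.084) and of miR-363 (-1.25, exact permutation test, adjusted p = 0.083) did not pass. Within mice, the arms of miR-363 passed (exact sign-flip test, adjusted p = 0.040, 6 of 6 mice). In colon the miR-363 ratio was 10.3 to 13.2 in DSS mice and 48.5 to 68.0 in control mice, on 1 or 2 counts of the 5p arm in each control colon. With 3 against 3 mice the exact permutation test cannot go below p = 0.1, which 6 of the 18 comparisons of DSS with control over the 9 ratios reached, this one among them.

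**Figure D5:**
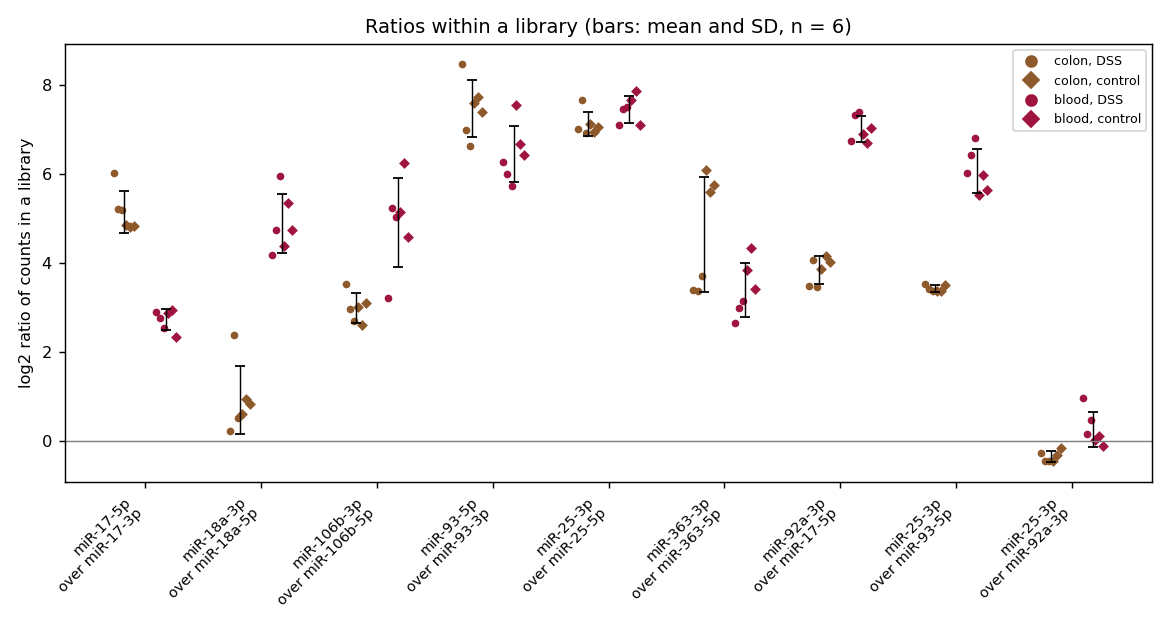
Log2 ratios of counts within a library for the arms of 6 hairpins and for 3 pairs of members, in 6 colon and 6 blood libraries, with mean and SD. The ratio of miR-18a-3p to miR-18a-5p and that of miR-92a-3p to miR-17-5p are higher in every blood library than in any colon library, and that of miR-17-5p to miR-17-3p is lower in every blood library.

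A wider list of 18 other products of the 3 clusters was counted as well. Of these, 8 passed the filter in colon and 9 in blood, and none passed edgeR's quasi-likelihood test for DSS against control in either tissue. At an unadjusted p under 0.05 there were 1 of 8 in colon and 2 of 9 in blood, against 31.4% and 11.6% of all miRNAs, and DSS libraries were higher in blood without overlap for miR-18a-3p, miR-93-3p and miR-25-5p, against 7.44% of all miRNAs. They were lower without overlap for miR-20b-5p and miR-17-3p, against 9.92%. miR-17-3p stood at 15.6 to 21.9 CPM in DSS blood and 28.8 to 32.1 CPM in control blood (log2 fold change -0.64, SE 0.23, edgeR adjusted p = 0.36). miR-25-5p stood at 177, 147 and 163 CPM in DSS blood and at 128, 120 and 135 CPM in control blood, with every DSS mouse above every control (log2 fold change 0.35, SE 0.20, edgeR adjusted p = 0.53). Of the 9 tested over all libraries, 7 were higher in blood in control mice and 6 in DSS mice, against 35.7% and 36% of all miRNAs. Among miRNAs outside the clusters, those whose profile over the 12 libraries was most like the mean profile of the 6 miR-17-92 members were miR-22-3p, miR-501-3p, miR-351-5p, miR-1839-5p and miR-425-3p. Their mean absolute log2 differences from it, each profile centred on its own mean, were 0.20 to 0.27, out of 339 candidates. The 6 members themselves lay farther from their mean profile, from 0.29 for miR-17-5p to 1.70 for miR-92a-3p. The 5 miRNAs were picked as the nearest of 339, so their lying nearer than the members follows in part from the picking.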

How the data were processed

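Small RNA libraries of colon and whole blood from 3 DSS and 3 control mice were analysed. The authors trimmed the reads with Flexbar, collapsed them with fastx-toolkit, and deposited unnormalized counts per mature mouse miRNA (miRBase version 22), made with miRDeep2's quantifier at default options. The authors also deposited a normalized signal per tissue, equal to each count over its library's DESeq2 size factor. No molecular identifiers are named in the sources used here, so depth (15060553 to 32944792 counts a library) bears on counting error only. GRCm38 is the build in the submitters' processing notes.

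Members and lists were chosen with earlier results of these data known. Mice were grouped as in the study's figures, and the grouping of the sample records was an alternative. Counts were tested in R (4.3.3) with edgeR (4.0.16): filterByExpr, TMM factors, glmQLFit and glmQLFTest without covariates, for each tissue alone, and for blood against colon and the difference of effects in 1 fit of all 12 libraries. A miRNA was called when its fold change was over 1.5 and its p, adjusted by Benjamini-Hochberg over all miRNAs tested, was 0.05 or less. The standard error is the size of the log2 fold change over the square root of F. Within a tissue, p-values measure the spread between mice. In the fits and permutation tests over all 12 libraries, the colon and blood libraries of a mouse were treated as independent. The mouse as a block and the sign-flip tests kept that pairing. The 10 members were named by the list itself, and of other miRNAs the products of the same 3 clusters and the 5 most alike profiles were named. Alternatives were DESeq2 (1.42.0), other scalings and filters, duplicate sequences kept once, miR-486 left out, robust dispersion, all libraries in 1 fit, limma (3.58.1) on log2(normalized signal + 1), each mouse left out, and the mouse as a block. Ratios of counts were compared with exact permutation and sign-flip tests in SciPy (1.17.1), added after the data were seen.

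The mouse numbers pair the colon and blood libraries because both come from the same animal. Deviations from the group means over 357 miRNAs correlated between the libraries of a mouse by -0.30 (mouse 4) to 0.16 (mouse 8). The tests were tested on simulated counts before use. Loci come from RefSeq (GRCm38.p6) and from GENCODE for GRCm38, and the mature sequences of all 10 members and of 13 of 15 other products with a deposited sequence had a RefSeq entry, all equal.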

Additional observations from a re-analysis of the deposited data

Results flagged for a closer look

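miR-363-3p and miR-20b-5p, both from the X-linked cluster, are listed because every DSS mouse lay above every control mouse in colon and below every control mouse in blood. Of all miRNAs tested, 22.5% were higher without overlap in colon and 9.92% lower without overlap in blood, and both miRNAs were picked by this pattern. The effect of DSS in blood less that in colon was -1.48 on the log2 scale for miR-363-3p and -1.70 for miR-20b-5p. In edgeR's quasi-likelihood test of that difference neither passed (adjusted p = 0.24 and 0.30), while DESeq2 called both (adjusted p = 1.6e-04 and 0.014). With the grouping of the sample records both differences turned, to 0.99 and 1.62. The values behind miR-20b-5p were 8 to 61 counts a library.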

How the results depend on the processing

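The limits are few mice and thin counts: 3 mice a group, 9 to 50 counts a colon library for miR-18a-5p and 28 to 90 for miR-19a-3p, and a grouping that the sample records contradict. For the counts of members called, 78 recomputed values stayed within 1.5 times and 7 did not. For DSS against control in colon, 0 of 10 became 1 with DESeq2 and 1 without the filter on low counts, and 0 to 1 when mice were left out (1 without DSS mouse 1), each time miR-363-3p. In blood, 0 became 2 without the filter (miR-19a-3p and miR-20a-5p) and stayed 0 to 0 with mice left out. For the difference of effects, 0 became 2 with DESeq2 and 1 with RLE factors, and stayed 0 to 0 with mice left out. For blood against colon in DSS mice, 6 became 10 with upper-quartile factors, 7 without the filter and 5 with total counts alone (of which miR-20a-5p was lower). Of all miRNAs, 591 of 680, 719 of 1405 and 564 of 680 passed there. The count was 5 to 9 with mice left out (9 without DSS mouse 9, where 565 of 700 miRNAs passed). In control mice 6 became 7 with RLE factors, DESeq2 or no filter (there with miR-19a-3p lower) and 8 with upper-quartile factors, and stayed 6 to 6 with mice left out. Of all miRNAs, 588, 587 and 590 of 680 passed with RLE factors, DESeq2 and upper-quartile factors, and 731 of 1405 without the filter. With the mouse as a replicate block the counts were 0 for the difference of effects, 6 in control mice and 6 in DSS mice. No member called in the main fit was lost with this pairing. Among the 9 ratios the pairing within mice ended the call for the arms of miR-106b (1.92) and made one for those of miR-363 (-1.25).

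Over all miRNAs, the 55 called in colon ranged from 0 to 77 over the settings: 77 with DESeq2, 16 with RLE factors, 8 with upper-quartile factors, 4 with limma and 0 with all libraries in 1 fit, with the other grouping and in 4 of the 6 fits that left out a mouse. The 0 called in blood reached 25 without the filter, and the 0 for the difference of effects reached 36 with DESeq2. For blood against colon, 588 in control mice and 567 in DSS mice ranged from 232 to 731 and from 235 to 719, along with how many miRNAs each filter left to test. The causes were not tested.

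Of single miRNAs, 45 of the recomputed values changed sign. In colon, miR-20a-5p turned from 0.04 to -0.020 with DESeq2, -0.021 with RLE factors, -0.059 with upper-quartile factors, -0.0021 with all libraries in 1 fit and -0.036 with limma. miR-18a-5p turned from 0.12 to -0.13 with limma, and miR-92a-3p from -0.18 to 0.043 with total counts alone. With mice left out the ranges that crossed 0 were -0.43 to 0.49 for miR-18a-5p, -0.16 to 0.28 for miR-19a-3p and -0.10 to 0.13 for miR-20a-5p. With the grouping of the sample records, colon gave -0.022 for miR-19a-3p, 0.19 for miR-19b-3p, 0.062 for miR-92a-3p, 0.081 for miR-93-5p, 0.061 for miR-25-3p, -0.61 for miR-363-3p and -1.05 for miR-20b-5p. That grouping gave in blood 0.44 for miR-17-5p, 0.66 for miR-20a-5p, 0.56 for miR-93-5p, 0.58 for miR-363-3p and 0.76 for miR-20b-5p. For the difference of effects it gave 0.42 for miR-20a-5p, -0.10 for miR-25-3p, 0.99 for miR-363-3p, 1.62 for miR-20b-5p and 1.54 for miR-363-5p.

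In blood, with mice left out, the ranges that crossed 0 were -0.22 to 0.55 for miR-18a-5p, -0.16 to 0.96 for miR-19b-3p, -0.071 to 0.94 for miR-106b-5p and -0.12 to 0.29 for miR-363-5p. For blood against colon in control mice, upper-quartile factors gave 0.50 for miR-19a-3p and 0.75 for miR-19b-3p, total counts alone -0.25 for miR-20a-5p, at least 10 counts in every library 0.066 for miR-19b-3p, and miR-486 left out -6.8e-04 for miR-20a-5p. In DSS mice, upper-quartile factors gave 0.66 for miR-20a-5p and total counts alone -0.087 for miR-19b-3p, and with mice left out the ranges were -0.61 to 1.93 for miR-19a-3p, -0.35 to 1.35 for miR-19b-3p and -0.82 to 0.018 for miR-20a-5p.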
